A study of Mus musculus with 12 samples.

Results

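The aryl hydrocarbon receptor gene Ahr and 5 genes known as its transcriptional targets were followed across 6 groups of mouse CD4+ T cells. The 6 genes are Ahr, Ahrr, Cyp1a1, Cyp1b1, Tiparp and Nqo1, out of 16426 genes with a probe set naming a single gene. They were matched by symbol, and each was measured by 1 probe set. Ahr was selected on its intensities in the 3 Treg groups of these same arrays, so that every difference of Ahr that uses a Treg array is given as a description with no test. The other members joined it as its targets. Of the 6 genes, Ahr and Tiparp lay above the median of their array on 12 of 12 arrays, and 8918 genes in all passed the filter set on that median. Ahrr, Cyp1a1, Cyp1b1 and Nqo1 lay below the median on every array and are described below with no place in the main test.

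The aryl hydrocarbon receptor (AHR) is a transcription factor of the bHLH-PAS family that is switched on by small molecules, among them dioxins, plant indoles and products of tryptophan breakdown. Without a ligand it is held in the cytosol by a chaperone complex that includes HSP90 and p23. With a ligand it enters the nucleus, pairs with ARNT and binds the xenobiotic response element (XRE) of its targets. Cyp1a1 and Cyp1b1 encode monooxygenases that break down AHR ligands, Ahrr encodes a repressor that competes with AHR for ARNT, and Tiparp encodes an ADP-ribosyltransferase that marks AHR and limits its activity. Nqo1 encodes a quinone reductase that is driven by both AHR and the oxidative stress factor NRF2. In T cells AHR is best known for its roles in interleukin-17-producing helper cells and in regulatory T cells (Tregs) of the gut.

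RNA was measured on 12 Affymetrix Mouse Gene ST 1.0 arrays, 2 for each group. The Treg groups were CD4+ CD25-high cells, sorted and sorted again, from spleens of mice homozygous for the WT, the M354 or the M176 form of Foxp3, the lineage factor of Tregs. The transduced groups were conventional CD4+ T cells of mice with WT Foxp3, given WT, M354 or M176 Foxp3 by a retrovirus and sorted for high Thy1.1. All samples are labelled as spleen cells of male C57Bl/6 mice aged 6 weeks. The series' design text speaks of treated mice without naming a treatment, and which residues M354 and M176 alter is not stated in the labels. Transduced cells without added Foxp3 are not among the groups. Whether both arrays of a group stem from different mice or cultures is not stated in the labels, so that a p-value here measures the spread between samples, possibly a technical one. In bulk samples fewer cells that express a gene and less RNA per cell cannot be told apart.

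The defining markers matched the labels, with Foxp3, Il2ra, Cd3e and Cd4 at intensities of 2998 or more on all 12 arrays. Foxp3 stood at 3321 to 3442 in M176 Tregs and between 5233 and 6163 in the other groups. Median intensities of the arrays were 101.5 to 117.4. Other measures, outside the AHR pathway, moved with groups. The mean log2 level of 36 small nucleolar RNA (snoRNA) genes was 9.98 to 10.04 in M176 Tregs, 8.66 to 8.87 in the other Tregs and 8.61 to 9.64 in transduced cells. The summed intensity of 10 B cell markers was 3829.6 to 4250.3 in transduced cells and 1849.8 to 2219.6 in Tregs, except for WT Treg replicate 2 at 4321. Of 9 CD8+ T and NK cell markers, 6 were above the 90th percentile of genes restricted to other organs, 125, in transduced cells and 2 in Tregs, with sums of 4405 to 6075 in transduced cells. In Tregs those sums were 2831 to 3298 with M354, 1900.0 to 2073 with WT and 1658 to 1982 with M176, and the part of these markers in the M354 differences below was not tested. None of 7 myeloid markers passed that level in any group.

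In the 250 bases before their transcription start the targets differ in the letters that AHR and ARNT are known to bind. Bases further upstream were not searched. The XRE core, GCGTG on either strand, was searched in the 250 bases before the transcription start of 5 members (RefSeq promoter windows, GRCm38.p6). No promoter window was available for Ahr. The core was found 3 times for Ahrr, 1 time each for Cyp1a1, Cyp1b1 and Tiparp, and 0 times for Nqo1. The Ahrr, Tiparp and Cyp1a1 windows are printed because the first 2 genes differed in level between the Treg and transduced groups, whereas Cyp1a1, the textbook target, lay low in both. Capitals mark the core, which reads CACGC where it lies on the opposite strand. The windows are chr13:74292332-74292581 on the minus strand for Ahrr, chr3:65528197-65528446 on the plus strand for Tiparp and chr9:57697363-57697612 on the plus strand for Cyp1a1.
Ahrr: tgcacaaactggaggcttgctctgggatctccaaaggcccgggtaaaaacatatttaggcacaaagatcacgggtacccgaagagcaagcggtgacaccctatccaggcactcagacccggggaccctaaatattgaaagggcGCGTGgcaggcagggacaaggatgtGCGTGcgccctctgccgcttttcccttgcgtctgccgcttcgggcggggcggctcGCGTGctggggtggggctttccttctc
Tiparp: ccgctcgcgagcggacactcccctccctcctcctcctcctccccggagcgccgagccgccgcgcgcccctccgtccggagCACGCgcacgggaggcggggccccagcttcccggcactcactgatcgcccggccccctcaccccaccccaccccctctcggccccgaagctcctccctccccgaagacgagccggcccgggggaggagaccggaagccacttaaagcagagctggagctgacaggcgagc
Cyp1a1: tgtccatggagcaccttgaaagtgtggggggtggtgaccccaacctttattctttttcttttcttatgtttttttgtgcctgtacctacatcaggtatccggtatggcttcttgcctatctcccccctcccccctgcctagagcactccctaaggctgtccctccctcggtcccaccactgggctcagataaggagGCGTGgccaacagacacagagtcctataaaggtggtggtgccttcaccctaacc
Counted from the transcription start, the cores of Ahrr begin at -107, -82 and -27, that of Cyp1a1 at -54, that of Cyp1b1 at -76 and that of Tiparp at -170. The core is common, with a match in 28.2% of 32851 RefSeq windows of the same length and in 35.9% of 12822 first windows of genes on the array. The longer form TNGCGTG, which contains the core, was found at the Ahrr core nearest the start, in none of the other 4 windows, and in 4.10% of all windows. The antioxidant response element TGACNNNGC, the NRF2 motif, was in none of the 5 windows and in 10.2% of all windows. A match is a run of letters and not a measured binding site. Each count, also a count of 0, holds for these 250 bases alone and says nothing about elements further upstream.

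Ahr, the receptor, had its highest level in M354 Tregs, an intermediate level in WT Tregs and its lowest Treg level in M176 Tregs. Its intensity was 1783 and 1732 on the arrays of M354 Tregs, 589.8 and 689.5 in WT Tregs, and 368 and 328 in M176 Tregs. No Treg group overlapped with another. The transduced cells lay below all Tregs. Ahr was measured at 316 and 281 with WT Foxp3, 282 and 256 with M176 and 228 and 292 with M354, and these 3 groups overlapped. The group means were 1758 ± 36.1 (SD, n = 2) in M354 Tregs, 639.7 ± 70.5 in WT Tregs, 348 ± 28.5 in M176 Tregs, 298 ± 24.8 in WT-transduced, 269 ± 18.2 in M176-transduced and 259.8 ± 45.0 in M354-transduced cells. Neighbours in this order were apart down to WT-transduced cells, and the last 3 were not.

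**Figure D1:**
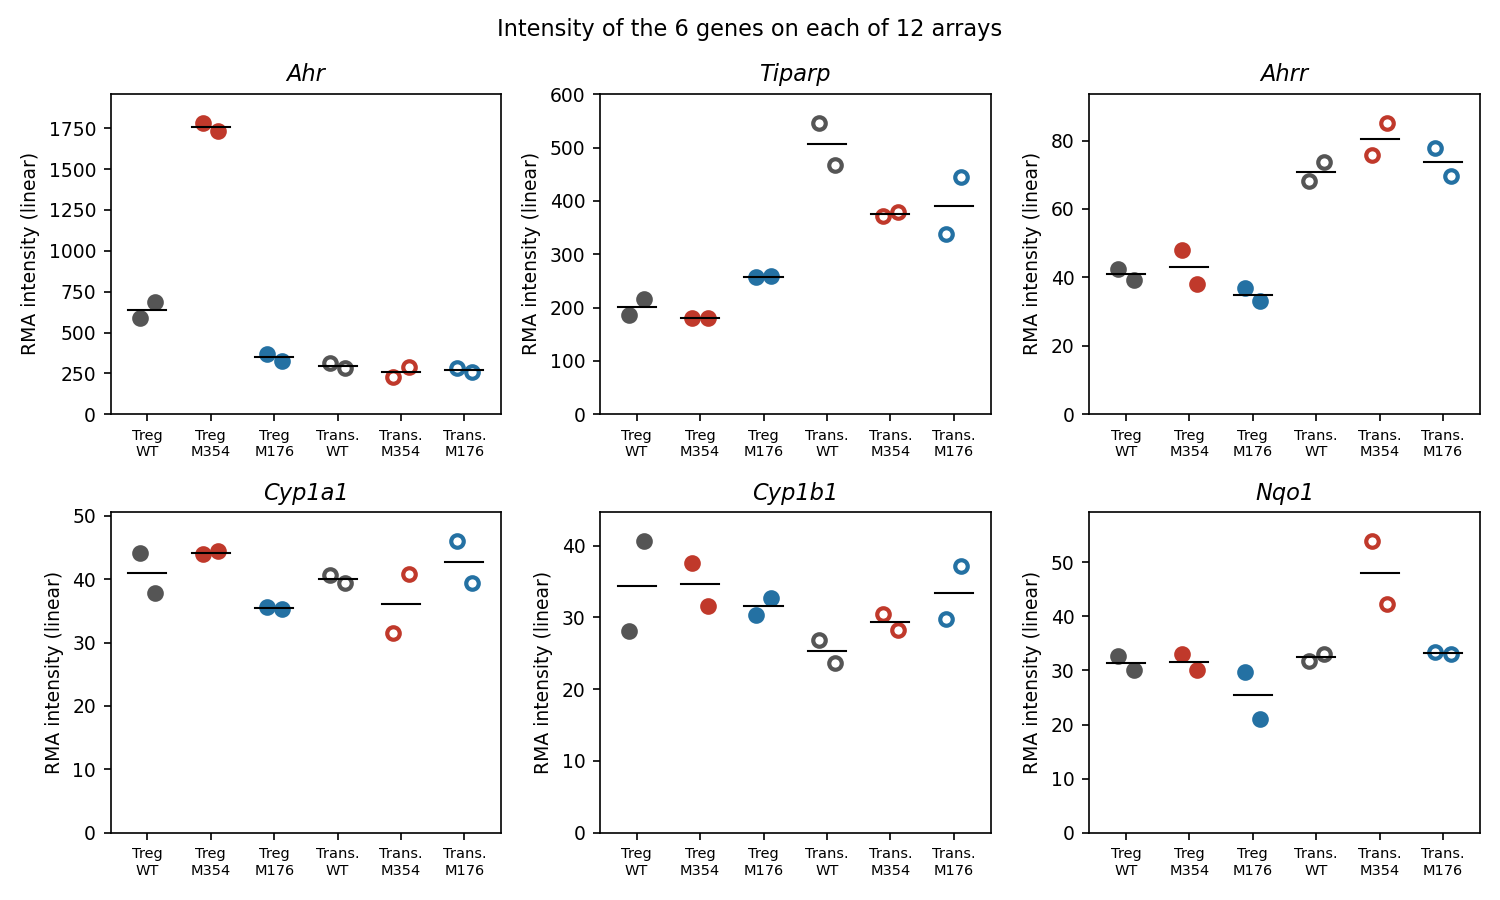
RMA intensity on a linear axis from 0 for each of the 6 genes, 1 point per array and a black line at each group mean, filled points for Tregs and open points for transduced cells. The 2 M354 Treg arrays of Ahr, at 1732 and 1783, lie far above the other 10, whereas Tiparp and Ahrr are higher on every transduced array than on every Treg array.

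Among Tregs the Ahr difference was larger for M354 than for M176 and ran the other way. M354 Tregs exceeded WT Tregs by 1.46 on the log2 scale (SE 0.15), or 2.76-fold. M176 Tregs were below WT by -0.87 on the log2 scale (SE 0.15), so that WT Tregs were 1.83-fold higher. M354 exceeded M176 by 2.34, or 5.05-fold. Both mutant comparisons use the same 2 WT arrays. WT Treg replicate 2, the array with the B cell markers, was the higher WT array, and without it the differences were 1.58 for M354 and -0.76 for M176. With the snoRNA level as a covariate the M176 difference was -0.49 and that of M354 against M176 was 1.93. The part of the snoRNA level in the M176 difference was not tested further.

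In transduced cells no Ahr difference between Foxp3 forms passed the test. Against WT the log2 difference was -0.21 for M354 (95% confidence interval -0.51 to 0.10, limma adjusted p = 0.694) and -0.15 for M176 (-0.45 to 0.16, adjusted p = 0.9999). Between the mutants it was -0.06 (-0.37 to 0.25, adjusted p = 0.993). The gap between both systems in the M354 difference was 1.67 on the log2 scale, and that in the M176 difference was -0.73, both without a test because they contain the Treg values. Between the systems with WT Foxp3, Ahr was 2.14-fold higher in Tregs (log2 difference 1.10, SE 0.15), again as a description. Both WT Treg arrays were above both WT-transduced arrays. Without WT Treg replicate 2 this difference was 0.99. In that comparison 30.2% of all tested genes were called, Treg or conventional origin, culture and transduction cannot be told apart, and the part of the B cell and CD8+ T and NK cell markers was not tested.

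Ahrr, the repressor of AHR, went the other way from Ahr between the systems at low intensity. It was measured at 42.5 and 39.3 in WT Tregs, 48.1 and 38.0 in M354 Tregs and 36.9 and 33.0 in M176 Tregs. In transduced cells it was 68.1 and 73.7 with WT Foxp3, 75.9 and 85.2 with M354 and 77.9 and 69.5 with M176. All 6 transduced arrays were above all 6 Treg arrays. WT-transduced cells were 1.73-fold above WT Tregs (log2 difference of Tregs over transduced cells -0.79). With no filter on dim genes this difference had a limma adjusted p of 0.000425. Of the genes above the filter 30.2% were called in that comparison. Treg or conventional origin, culture and transduction cannot be told apart there, and the part of the B cell and CD8+ T and NK cell markers was not tested. The largest difference of Ahrr between Foxp3 forms was 0.29 for M354 over M176 Tregs (adjusted p = 0.138 with no filter).

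Cyp1a1 and Cyp1b1, the monooxygenases, were low in every group, also where Ahr was highest. Cyp1a1 was 44.1 and 37.7 in WT Tregs, 43.9 and 44.4 in M354 Tregs and 35.6 and 35.3 in M176 Tregs. Over the transduced arrays it ranged from 31.5 to 46.0. The M354 Treg arrays lay at the level of the higher WT array, and the M176 Treg arrays were the lowest of the Tregs. Cyp1b1 was 28.1 and 40.6 in WT Tregs, 37.6 and 31.6 in M354 Tregs and 30.4 and 32.8 in M176 Tregs, and 23.7 to 37.1 over the transduced arrays. The spread between the WT Treg arrays of Cyp1b1 covered all other Treg arrays.

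Nqo1, the quinone reductase, was higher on both arrays of M354-transduced cells than on any other. It was 53.9 and 42.2 there, 31.8 and 33.0 with WT and 33.4 and 33.0 with M176 Foxp3. In Tregs it was 32.7 and 30.1 with WT, 33.1 and 30.1 with M354 and 29.8 and 21.1 with M176. The log2 difference of M354 over WT in transduced cells was 0.56, which did not pass with no filter on dim genes (limma adjusted p = 0.138). Genes restricted to other organs give a view of how bright a probe set can be in these cells without its transcript being a T cell product. The medians of 28 such genes ran from 13.1 to 167, with a median of 57.7. All 4 dim members stayed within that range on all 12 arrays. Group means of other genes below that fall within it, such as those of Ccr6, Npas4, Gpr15, Arnt2 and Cyp2s1 where they are lowest, hold an unknown share of background, and a difference from such a mean is no exact ratio of transcripts. Brightness differs between probe sets, so this places no amount on the transcripts, and no detection call was used here.

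**Figure D2:**
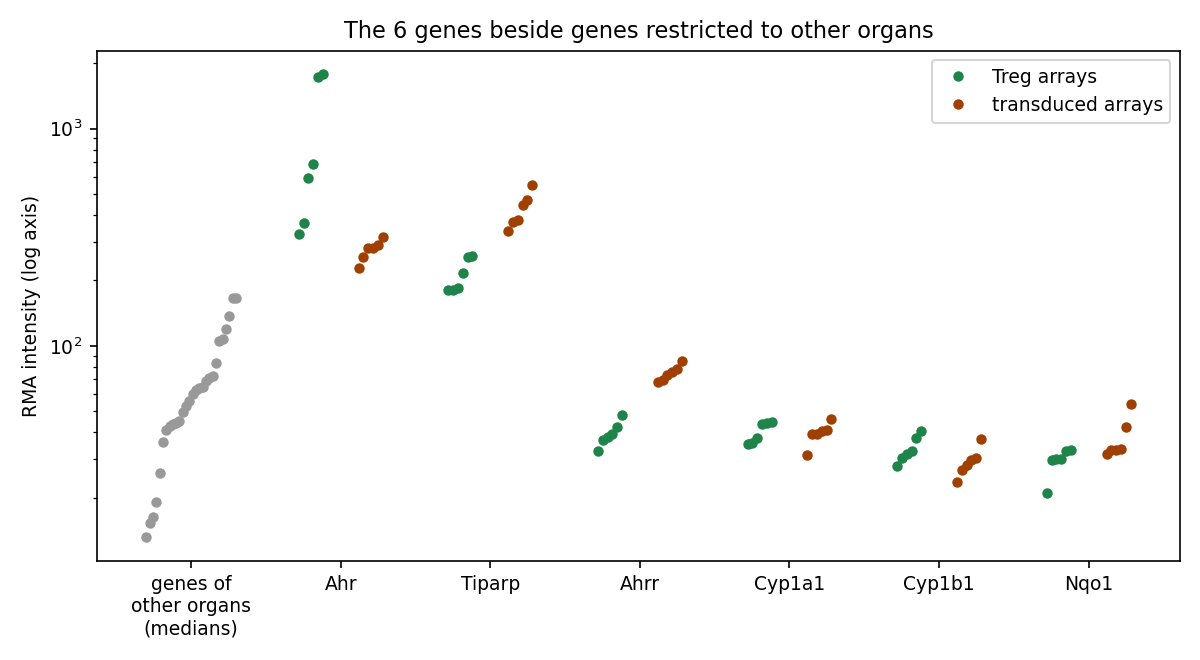
RMA intensity on a log axis of the 6 genes on the 6 Treg (green) and 6 transduced (brown) arrays, beside the medians over 12 arrays of 28 genes restricted to other organs (grey). Ahrr, Cyp1a1, Cyp1b1 and Nqo1 lie between 21.1 and 85.2, inside the grey range of 13.1 to 167, and Ahr and Tiparp lie above it.

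Tiparp, the ADP-ribosyltransferase that limits AHR, was higher in transduced cells than in Tregs, and among Tregs its group means were in the opposite order to those of Ahr. It was 185 and 216 in WT Tregs, 181 and 180.1 in M354 Tregs and 257 and 259 in M176 Tregs. In transduced cells it was 547 and 467 with WT Foxp3, 371 and 378 with M354 and 444 and 338 with M176. Every transduced array was above every Treg array, and M176 Tregs were above the other Tregs, M354 Tregs below them. WT-transduced cells exceeded WT Tregs 2.53-fold (log2 difference of Tregs over transduced cells -1.34, SE 0.15, interval -1.64 to -1.03, limma adjusted p = 2.21e-06). Over the arrays left out 1 at a time that difference stayed between -1.45 and -1.22 with a largest adjusted p of 6.31e-05. It is set against the same 30.2% of genes called, and the same markers of other cells were higher in the transduced groups.

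Among Tregs, Tiparp passed the test between the mutants alone. M354 was below M176 by -0.52 on the log2 scale (SE 0.15, limma adjusted p = 0.0129), in a comparison that called 30.8% of all tested genes. The call was not made without M354 Treg replicate 1 (adjusted p = 0.0677), without M176 Treg replicate 1 (0.0727) or replicate 2 (0.0637), or with the snoRNA level as a covariate (-0.42, adjusted p = 0.325). Against WT, Tiparp differed by 0.37 in M176 Tregs (interval 0.06 to 0.67, adjusted p = 0.0743), where 24.7% of genes were called. In M354 Tregs it differed by -0.15 (interval -0.46 to 0.16, adjusted p = 0.811), where 1.81% of genes were called. The M176 value passed when the groups compared were fitted alone (adjusted p = 0.0449) or with array weights (0.0393).

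In transduced cells Tiparp was lower on both arrays of each mutant than on both WT arrays, without passing the test. The log2 difference from WT was -0.43 for M354 (interval -0.74 to -0.12, limma adjusted p = 0.200) and -0.38 for M176 (interval -0.69 to -0.08, adjusted p = 0.631). Of the 2 members tested there, Ahr and Tiparp, 0 were called in either comparison and 1, Tiparp, had an unadjusted p under 0.05 in each. Over all genes 1.33% were called for M354 and 0.516% for M176. M354 and M176 differed by -0.05 (adjusted p = 0.993), with 0 of 2 members called, 0 at an unadjusted p under 0.05 and 0.0785% of all genes called.

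The M176 effect on Tiparp differed between the systems. The effect in Tregs minus that in transduced cells was 0.75 on the log2 scale (SE 0.21, interval 0.32 to 1.18, limma adjusted p = 0.0418), where 5.49% of genes were called. The call was not made without M176 Treg replicate 1 (0.141) or 2 (0.0947), WT Treg replicate 1 (0.146), M176-transduced replicate 1 (0.210) or WT-transduced replicate 1 (0.123). It was also not made with the snoRNA level as a covariate (0.205), with no filter (0.0509), after quantile normalization (0.0523), in the groups compared alone (0.0595) or with a replicate block (0.0561). The corresponding M354 value was 0.28 (interval -0.15 to 0.72, adjusted p = 0.779), where 1.08% of genes were called.

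**Figure D3:**
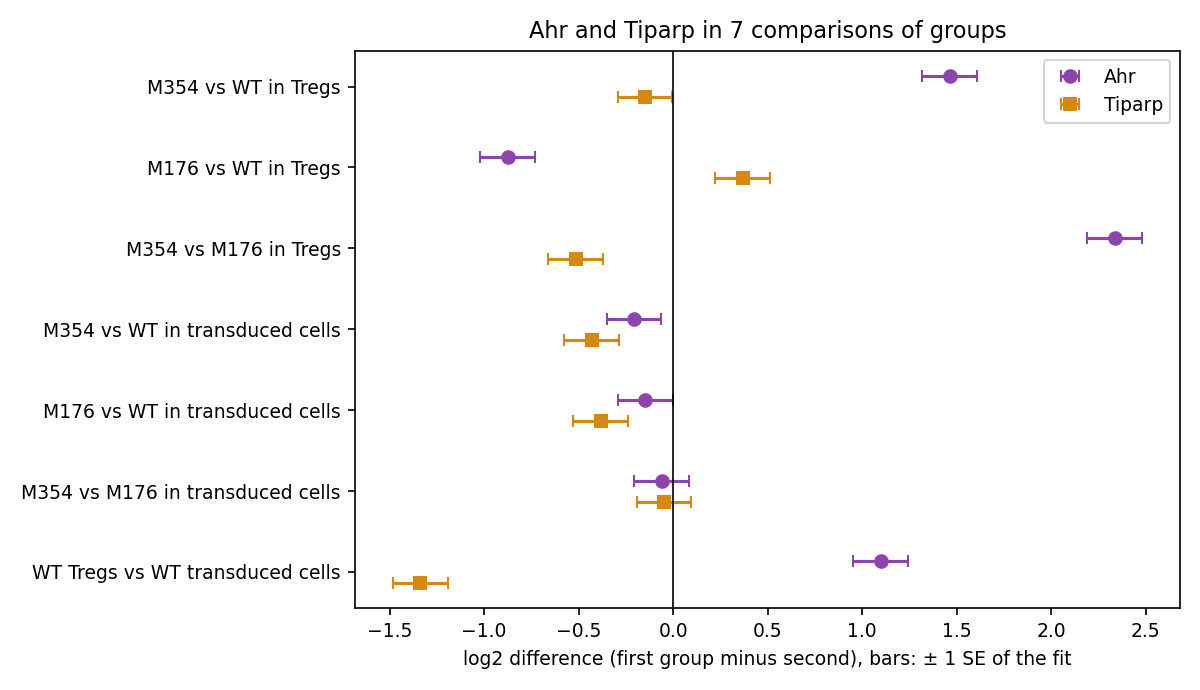
Log2 difference of the first group minus the second for Ahr (purple circles) and Tiparp (orange squares) in 7 comparisons, with bars of 1 SE of the limma fit. Ahr lies at 1.46, -0.87 and 2.34 in the Treg comparisons, where Tiparp lies at -0.15, 0.37 and -0.52, and all values in transduced cells are below 0.

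No tested partner, chaperone or coactivator of AHR passed the test in M354 against WT Tregs, where 1.81% of all genes passed. Of 16 listed genes of the AHR complex other than Ahr, 11 were tested. In M354 against WT Tregs limma called 0 of 11, with 1 at an unadjusted p under 0.05 and a median log2 difference of -0.16, against -0.04 over all genes. Arnt, the partner of AHR on DNA and named outside the rule, was 1081 ± 45.2 in M354 Tregs, 1242 ± 49.2 in WT Tregs and 1026 ± 6.85 in M176 Tregs, and passed in none of the comparisons. Its paralogue Arnt2, which can also pair with AHR, was 203 ± 22.6 in WT, 234 ± 14.1 in M354 and 102 ± 2.90 in M176 Tregs.

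In M176 against WT Tregs, 6 of the 11 were called, 2 higher and 4 lower, with a median of -0.28 against -0.04 over all genes. Of all genes 24.7% were called, 13.4% higher and 11.3% lower. Arnt2 fell by 0.995 on the log2 scale (SE 0.13, limma adjusted p = 7.36e-05). Ep300 and Crebbp, acetyltransferase coactivators, fell by 0.89 (adjusted p = 0.000612) and by 0.67 (0.00341). Ptges3, which encodes the co-chaperone p23, rose by 0.71 (adjusted p = 0.0348), from 1486 ± 236 to 2414 ± 231. The remaining calls, named outside the rule, were the coactivator Ncoa1 at -0.55 and the chaperone Hsp90aa1 at 0.47. The Crebbp call was not made without M176 Treg replicate 1 (0.088), nor that of Ptges3 without M176 Treg replicate 1 (0.207) or 2 (0.0688) or WT Treg replicate 1 (0.197). With the snoRNA level as a covariate the adjusted p was 0.0565 for Arnt2, 0.162 for Ep300, 0.398 for Crebbp and 0.876 for Ptges3.

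Between the mutants in Tregs, 4 of the 11 were higher in M354 and 2 lower, where 12.7% of all genes were called higher and 18.1% lower. Arnt2 was higher by 1.20 (limma adjusted p = 7.53e-06) and Ep300 by 0.60 (0.00790). Ptges3 was lower by -0.85 (0.0106) and Hsp90aa1 by -0.56 (0.00682). The calls of Ep300, Ptges3 and Hsp90aa1 were not made without M354 Treg replicate 1 (0.113, 0.188 and 0.0705) or without M176 Treg replicate 1 (0.149, 0.0921 and 0.0940), nor with the snoRNA covariate (0.424, 0.728 and 0.223). In the 3 comparisons of transduced cells 0 of 11 were called, with 1, 0 and 1 at an unadjusted p under 0.05. Over all genes 1.33%, 0.516% and 0.0785% were called in these 3. Between WT Tregs and WT-transduced cells, where 30.2% of all genes were called, the single call was Arnt2, higher in Tregs by 0.61 (adjusted p = 0.00254). Its M176 effect was lower in Tregs than in transduced cells by -1.11 (adjusted p = 0.00303).

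Within the bHLH-PAS family to which AHR belongs, Epas1 moved with M354 in Tregs. Of 14 listed genes other than Ahr and Ahrr, 7 were tested, and Arnt and Arnt2 also stand in the AHR complex list. Epas1, the hypoxia factor HIF-2 alpha, was 181 ± 20.1 in M354 against 104 ± 28.7 in WT Tregs (log2 difference 0.82, SE 0.18, limma adjusted p = 0.0212). Epas1 was the only 1 of 7 called, where 1.81% of all genes were called. That call was not made without M354 Treg replicate 1 (0.0796) or 2 (0.154) or without WT Treg replicate 2 (0.286). In M176 Tregs, where 11.3% of all genes were called lower and 13.4% higher, 2 of 7 were called, both lower than in WT. They were Arnt2 and Npas4, an activity-induced factor of neurons, at 70.6 ± 5.19 against 153.6 ± 14.98 (-1.12, and -0.81 with the snoRNA covariate). Npas4 was at most 74.3 in M176 Tregs and 69.5 in transduced cells, below the array medians. It entered the test through M354 and WT Tregs alone, so its differences are given as a description. The counts of this list that include Npas4 are therefore not compared with the shares of all genes.

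Between the mutants 4 of the 7 passed, all higher in M354 Tregs, a count that includes the described Npas4. Of all genes 12.7% were called higher there and 18.1% lower. Npas4 was higher by 1.54, as a description, and Arnt2 by the 1.20 given above. Epas1 was higher by 0.64 (limma adjusted p = 0.0121) and Hif1a, the hypoxia factor HIF-1 alpha, by 0.39 (0.0438). Epas1 was not called without M354 Treg replicate 2 (0.0870), M176 Treg replicate 1 (0.05001) or 2 (0.0752), and Hif1a not without any 1 of the 4 arrays compared (0.0524 to 0.237) or of the 2 M354-transduced arrays (0.0525), with no filter (0.0512) or with a replicate block (0.0580). With the snoRNA covariate the adjusted p was 0.815 for Epas1 and 0.398 for Hif1a. Between WT Tregs and WT-transduced cells 2 passed as higher, among them the described Npas4, and 2 as lower. Of all genes 10.9% were called higher there and 19.4% lower. Hif1a was at 2211 ± 309 in Tregs and 5881 ± 503 in transduced cells (-1.42, adjusted p = 6.96e-07), and Epas1 was also lower in Tregs (-1.12, 0.000142), whereas Npas4 was higher (1.24, as a description). None of 7 was called within transduced cells, with 0 at an unadjusted p under 0.05 in each of the 3 comparisons. Over all genes 1.33%, 0.516% and 0.0785% were called there.

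No other tested xenobiotic target of AHR passed in M354 against WT Tregs, where 1.81% of all genes passed. Of 17 listed genes other than the members 7 were tested, and in M354 against WT Tregs 0 of 7 were called by limma, 3 having an unadjusted p under 0.05, with a median of -0.11. Of all 8918 genes, 986 had an unadjusted p under 0.05 in that comparison. In M176 against WT Tregs, where 13.4% of all genes were called higher and 11.3% lower, 1 of 7 rose, Nfe2l2, which encodes NRF2 (0.44, adjusted p = 0.0414). Its call was not made without any 1 of the 4 arrays compared (0.0518 to 0.301), with no filter (0.0525), with a replicate block (0.0550) or with the snoRNA covariate (0.315). Between the mutants, where 12.7% of all genes were called higher and 18.1% lower, 3 were called, all lower in M354 Tregs. They were the cell cycle inhibitor Cdkn1b at -0.45 (0.0102), Nfe2l2 at -0.42 (0.0434) and the phosphomannomutase Pmm1 at -0.39 (0.0238). Each of these lost its call when M354 Treg replicate 1, M176 Treg replicate 1 or M176 Treg replicate 2 was left out (0.0527 to 0.300). Nfe2l2 lost it also without M354 Treg replicate 2 (0.0985), with no filter (0.0503), with a replicate block (0.0572) and after quantile normalization (0.0828) or cyclic loess (0.0748), and all 3 lost it with the snoRNA covariate (0.113 to 0.291).

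Between the systems the xenobiotic targets that were called were higher in transduced cells, as Tiparp was. Cyp2s1, a cytochrome P450 known to be induced through AHR, was 113 ± 24.9 in WT Tregs and 508 ± 64.3 in WT-transduced cells (log2 difference -2.19, SE 0.19, limma adjusted p = 1.86e-07). Nfe2l2 was lower in Tregs by -0.73 (0.00157) and Cdkn1b by -0.62 (0.000920). With these 3 of 7 called lower and 0 higher, the median was -0.42, against -0.08 over all genes, of which 10.9% were called higher and 19.4% lower. After quantile normalization those shares were 15.3% and 14.5%. The remaining listed genes that lay below the filter included Cyp1a2, at 29.9 to 40.0 over the 12 arrays.

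Of the genes linked to AHR in T cells, a part fell in M176 Tregs and none passed in M354 Tregs, where 1.81% of all genes passed. Of 22 listed, 9 were tested. In M354 against WT Tregs limma called 0 of 9, with 4 at an unadjusted p under 0.05 and a median of 0.21. Of all 8918 genes, 986 had an unadjusted p under 0.05 there, and the median was -0.04. In M176 against WT Tregs 5 of 9 fell and 0 rose, with a median of -0.37, where 11.3% of all genes were called lower and 13.4% higher. Maf, a transcription factor of interleukin-10-producing T cells, fell from 1337 ± 7.02 in WT to 632 ± 18.6 (log2 difference -1.08, SE 0.12, limma adjusted p = 1.58e-05). The chemokine receptor Ccr6 fell from 472 ± 76.4 to 156 ± 1.16 (-1.59, adjusted p = 2.76e-06). The cytotoxic protease Gzmb fell from 355 ± 88.4 to 50.2 ± 3.72 (-2.80, adjusted p = 3.63e-07), a level inside the range of the genes of other organs.

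The summed intensities of marker lists were also lower in M176 than in WT Tregs. They were 417 to 444 against 774 to 938 for 4 Th17 cell markers, which include Ccr6, 32524 to 33642 against 42701 to 45436 for 14 Treg markers, and 3592 to 3593 against 5145 to 5376 for 7 innate lymphoid and mast cell markers. Their part in these falls was not tested. The remaining falls in M176 Tregs were those of the gut-homing receptor Gpr15, from 116 ± 18.0 to 81.3 ± 4.19 (log2 difference -0.51, limma adjusted p = 0.0251), and of the ectonucleotidase Entpd1, named outside the rule, at -0.37. The Gpr15 call was not made after quantile normalization (0.0605) or cyclic loess (0.0657), with the snoRNA covariate (0.883), or without M176 Treg replicate 1 (0.0864) or 2 (0.130) or WT Treg replicate 1 (0.224). Maf, Ccr6 and Gzmb kept their calls in all alternatives run. Between the mutants 6 of 9 were called, all higher in M354 Tregs, where 30.8% of all genes were called, 12.7% higher and 18.1% lower. The largest were Gzmb at 3.09 (adjusted p = 3.11e-08), Maf at 1.48 (4.00e-07), Ccr6 at 1.14 (3.63e-05) and Gpr15 at 0.87 (0.000530, and 0.294 with the snoRNA covariate). Maf thus stood at 1757 ± 47.8 in M354, 1337 ± 7.02 in WT and 632 ± 18.6 in M176 Tregs, in the same order as Ahr.

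In transduced cells the AHR-linked genes that passed were lower with M354. Maf fell from 1612 ± 71.9 with WT to 958 ± 73.7 with M354 Foxp3 (-0.75, limma adjusted p = 0.00364), a call not made without M354-transduced replicate 1 (0.0800). Nt5e, an ectonucleotidase that makes adenosine, fell from 1222 ± 123 to 793 ± 42.2 (-0.62, 0.0194), which was not called without M354-transduced replicate 1 (0.248) or 2 (0.0637) or WT-transduced replicate 1 (0.118), or in the groups compared alone (0.101). No gene of the 9 was called for M176 against WT or between the mutants, with 3 and 2 at an unadjusted p under 0.05. Over all genes 0.516% and 0.0785% were called in these comparisons. The M354 effect was higher in Tregs than in transduced cells for Maf by 1.15 (0.00217) and for Nt5e by 1.03 (0.00713). The M176 effect was lower in Tregs for Ccr6 by -1.77, a description because Ccr6 lay below the array medians in transduced cells. It was also lower in Tregs for Gzmb by -2.52 (0.000123) and for Maf by -0.68 (0.0323). The last was not called with a replicate block (0.0518), with the snoRNA covariate (0.237), or without any 1 of M176 Treg replicates 1 and 2, WT Treg replicates 1 and 2, M176-transduced replicate 1 and WT-transduced replicates 1 and 2 (0.0515 to 0.142).

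Between WT Tregs and WT-transduced cells 2 of the 9 AHR-linked genes passed as higher in Tregs and 1 as lower, where 30.2% of all genes were called. The count of higher genes includes Ccr6, given below as a description, so the share of this list is not compared with that of all genes. Ccr6 was 472 ± 76.4 against 71.5 ± 7.60 (log2 difference 2.72), the latter a level inside the range of the genes of other organs. Ccr6 was at most 84.3 on transduced arrays, below the array medians. It entered the test through its Treg arrays alone, so this difference is given as a description. Nt5e was 2007 ± 83.4 against 1222 ± 123 (0.72, limma adjusted p = 0.000500). Gzmb was 355 ± 88.4 in Tregs against 5452 ± 137 in transduced cells (-3.96, 3.27e-10). Gzmb is also made by CD8+ T and NK cells, whose markers were higher in the transduced groups, and their part in it was not tested. Cd8a was 371 to 449 in WT-transduced cells and 82.1 to 106 in WT Tregs.

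Of the genes listed under AHR ligand supply, mainly of tryptophan breakdown and uptake, 2 of 7 tested were called between WT Tregs and WT-transduced cells. That share of 28.6% is near the 30.2% of all genes. Of the 17 listed, Ido1 and Tdo2, the first enzymes of the pathway, lay below the filter at 29.6 to 40.1 and 16.6 to 22.0 over the 12 arrays. Qprt, which turns quinolinate into an NAD precursor, was 450.5 ± 60.8 in WT Tregs and 303 ± 15.1 in WT-transduced cells (0.57, limma adjusted p = 0.00771). Without WT Treg replicate 1 or WT-transduced replicate 1 Qprt was not called (0.108 and 0.0540). Wars, the tryptophan-tRNA ligase and so not itself a gene of breakdown or uptake, was 477 ± 26.6 and 1059.5 ± 22.8 (-1.15, adjusted p = 4.03e-06). Limma called 0 of 7 in the 8 other comparisons, where 1 gene had an unadjusted p under 0.05 between the mutants in transduced cells and 0 in the others. In those comparisons 0.0785% to 30.8% of all genes were called.

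Some NRF2 targets, which belong to the second route to Nqo1, rose in M176 Tregs. Of 27 listed genes other than Nqo1, 22 were tested, and Nfe2l2 also stands among the xenobiotic targets. Against WT Tregs 7 of 22 rose and 0 fell, with a median of 0.06. That is 31.8% called, against 24.7% of all genes, 13.4% higher and 11.3% lower. Ftl1, the ferritin light chain, rose from 2856 ± 224 to 5290.1 ± 320 (log2 difference 0.89, SE 0.13, limma adjusted p = 0.000205). Blvrb, a biliverdin reductase, rose by 0.81 (0.000592), Taldo1, a pentose phosphate enzyme, by 0.71 (0.00184) and Prdx1, a peroxiredoxin, by 0.70 (0.00200). With the snoRNA covariate the last 3 had adjusted p values of 0.0912, 0.364 and 0.109, and Ftl1 kept its call. In M354 against WT Tregs 0 of 22 were called by limma, with 2 at an unadjusted p under 0.05, where 1.81% of all genes were called.

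Between the mutants 7 NRF2 targets were lower and 2 higher in M354 Tregs, 40.9% of those tested against 30.8% of all genes. Ftl1 was lower by -1.04 (limma adjusted p = 3.17e-05), Blvrb by -0.89 (0.000190) and Taldo1 by -0.81 (0.000524), and Mafg, a small MAF partner of NRF2, was higher by 0.61 (0.00266). Blvrb, Taldo1 and Mafg were not called with the snoRNA covariate (0.0577, 0.231 and 0.232), nor Mafg without M176 Treg replicate 1 (0.0528). Between the systems 7 were lower in WT Tregs and 1 higher, 36.4% of those tested against 30.2% of all genes, with a median of -0.25. The lower genes were led by Pgd of the pentose phosphate pathway at -0.92 (2.21e-05), glutathione reductase Gsr at -0.78 (0.00380), Nfe2l2 at -0.73 and the transketolase Tkt at -0.72 (0.000347). Nqo1 itself was 31.4 ± 1.83 and 32.4 ± 0.86 in those groups. In transduced cells limma called 0 of 22 in each comparison, with 3, 4 and 0 at an unadjusted p under 0.05 for M354, M176 and the mutants against each other. Over all genes 1.33%, 0.516% and 0.0785% were called in these comparisons.

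The relatives of Tiparp among the mono-ADP-ribosyltransferases and other PARP genes had few calls in Tregs. Of 12 listed 10 were tested, and limma called 0 of 10 in M354 against WT Tregs and within transduced cells, with 0 at an unadjusted p under 0.05 in these 4 comparisons. Over all genes 1.81% were called in the first, and 1.33%, 0.516% and 0.0785% in transduced cells. Between the mutants in Tregs 0 of 10 were called, with 2 at an unadjusted p under 0.05, where 30.8% of all genes were called. In M176 against WT Tregs 1 of 10 was called, where 24.7% of all genes were. Parp6 fell in M176 against WT Tregs, from 613 ± 8.67 to 442 ± 29.7 (-0.47, limma adjusted p = 0.0259), which was not called without any 1 of the 4 arrays compared (0.0773 to 0.151) or with the snoRNA covariate (0.954). Between WT Tregs and WT-transduced cells Parp8 (1.17, 0.000123) and Parp3 (0.44, 0.0109) were higher in Tregs, where 30.2% of all genes were called. Parp9 (-0.65, 0.00187) and Parp16 (-0.41, 0.0275) were lower there. Parp3 was not called without WT Treg replicate 1 (0.108) or WT-transduced replicate 1 (0.0663), and Parp16 not without either WT Treg array or WT-transduced replicate 1 (0.0818 to 0.203), or in the groups compared alone (0.0565). The Tiparp difference of -1.34 was larger in size than that of these 4 genes.

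**Figure D4:**
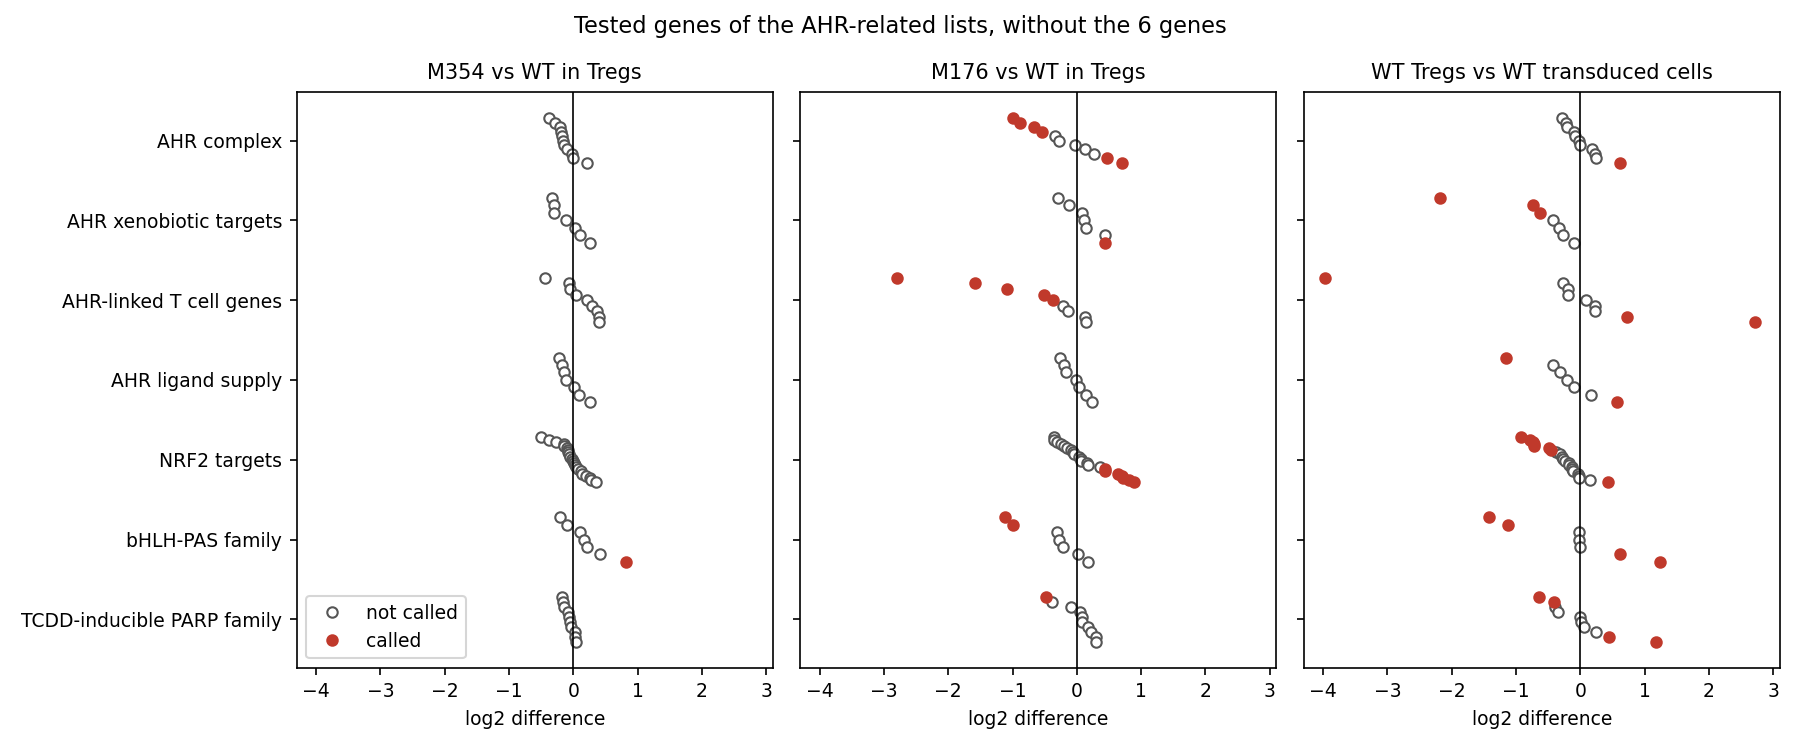
Log2 difference of each tested gene of the 7 lists, without the 6 members, in M354 against WT Tregs, M176 against WT Tregs and WT Tregs against WT-transduced cells, with red points for genes called at an adjusted p under 0.05. Only Epas1 is called in the first panel, a comparison that called 1.81% of all genes, whereas the AHR-linked T cell genes reach -2.80 in the second and -3.96 to 2.72 in the third.

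The genes most like Ahr over the 12 arrays were those high in M354 Tregs, given as a description. Ahr was selected on its Treg intensities and only genes above the filter were compared, so the likeness draws on the values used for the selection. Of 8576 genes compared, Pearson's r of log2 values was highest for Tmem63c (0.98), Gcnt1 (0.97), Ptpn13 (0.97), Fgf2 (0.97) and Fcrl1 (0.97). Ptpn13, a tyrosine phosphatase, had mean intensities of 507 in M354, 286 in WT and 227 in M176 Tregs and 148 to 205 in transduced groups. Fgf2, a fibroblast growth factor, stood at 208, 109.9 and 98.1 in the same Treg groups. Outside M354 Tregs the group means of Tmem63c were 50.7 to 76.7, below the array medians. Those of Gcnt1 were 44.8 to 102.9 and those of Fgf2 81.6 to 109.9. These means lie inside the range of the genes of other organs, 13.1 to 167. The lowest r was that of Saraf (-0.97), Selenop (-0.96), Pink1 (-0.96), Sec11a (-0.96) and Frat1 (-0.95). Selenop, a selenium carrier, was 822 in M354, 1201 in WT and 1668 in M176 Tregs. These values describe 12 arrays that fall into 6 pairs of replicates, and within the 6 transduced arrays r of these 10 genes with Ahr ran from -0.63 to 0.71.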

How the data were processed

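RNA of 12 samples in 6 groups, taken from the sample labels, was amplified with the Ambion WT Expression Kit and read on Affymetrix Mouse Gene ST 1.0 arrays. Per the submitters' processing notes, the authors used Affymetrix Power Tools and the RMA method, a background correction, normalization between arrays and summary of probes. The deposited values are linear intensities, with 1 value for each probe set on each array. The genome build behind the array annotation is not given in the sources here. Arrays have no read depth, and 2 arrays per group limit the precision. An exact permutation test of 2 against 2 arrays cannot go below 0.333, so no such test was used.

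Of 20716 probe sets, 17703 named 1 gene, 1246 several and 1767 none. Entrez numbers of 17635 matched RefSeq and 0 symbols changed. The brightest probe set was used for 734 genes with several. Genes above the median (percentile 50) of their array on at least 2 of 12 arrays were tested. The log2 of the intensities was modelled in limma 3.58.1 (R 4.3.3 and statmod 1.5.0) by 1 mean per group, 6 residual and 10.9 prior degrees of freedom. The limma fit alone was tried on simulated data with independent normal noise, for M354 against WT Tregs. The choice of probe sets, the filter, the lists and the other comparisons were not simulated. Genes with an adjusted p (Benjamini-Hochberg, over all genes tested) under 0.05 were called. All adjusted p values are limma's, SE are of the fit, and mean ± SD are of linear intensities with n = 2.

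Comparisons numbered 9: M354 and M176 against WT and M354 against M176 within each system, the difference between systems for each mutant, and WT Tregs against WT-transduced cells. Those of 1 system share arrays. The members and lists were chosen with earlier results of these data known. The lists were the AHR complex, xenobiotic targets, AHR-linked T cell genes, AHR ligand supply, NRF2 targets, the bHLH-PAS family and the PARP family, with 10 cell marker lists and 30 genes of other organs. Sums of the marker lists not given in the results were 597 to 1176 (plasma cells), 739 to 1084 (dendritic cells), 168 to 331 (erythroid), 3592 to 9258 (innate lymphoid and mast cells), 417 to 938 (Th17), 32524 to 45436 (Treg markers) and 33148 to 38064 (T cell identity).

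Genes were named by a rule: all members, up to 4 called genes per list and comparison with the largest change, and the 5 highest and 5 lowest correlations with Ahr, without predicted genes and clones. Alternatives were no filter, the 75th percentile as filter, quantile and cyclic loess normalization, the mean over probe sets, the compared groups alone, array weights, the snoRNA level as covariate, a replicate block and each array left out.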

Additional observations from a re-analysis of the deposited data

Results flagged for a closer look

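Several results differed between Tregs and transduced cells in the effect of the same Foxp3 form, given as the effect in Tregs minus that in transduced cells on the log2 scale. For M354 the value was 1.67 for Ahr, which was not tested. Both M354 arrays lay above the WT mean in Tregs and both lay below it in transduced cells. Tested values for M354 were 1.15 for Maf and 1.03 for Nt5e.

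For M176 the tested values were 0.75 for Tiparp, -1.11 for Arnt2, 0.85 for Ftl1, -2.52 for Gzmb, 0.72 for Hsp90aa1, -0.68 for Maf, 0.72 for Pgd and 0.67 for Tkt, each at a limma adjusted p under 0.05. Ccr6 at -1.77 and Npas4 at -1.06 also passed, but both lay below the array medians on all transduced arrays and are given as a description. Of all these genes, Arnt2, Ccr6 and Gzmb kept their calls in all alternatives, and the others lost theirs in at least 1. Ftl1 was not called without M176 Treg replicate 1 (0.0918), WT Treg replicate 2 (0.0543) or M176-transduced replicate 2 (0.0567). Pgd was not called without M176 Treg replicate 1, WT Treg replicates 1 or 2, M176-transduced replicate 1 or WT-transduced replicate 1 (0.0542 to 0.117), nor with the snoRNA covariate (0.0606). Npas4 was not called without M176 Treg replicates 1 or 2, WT Treg replicate 1, M176-transduced replicate 1 or WT-transduced replicate 1 (0.0692 to 0.142), nor after quantile normalization (0.0534) or with the snoRNA covariate (0.226). Tkt was not called without any 1 of the 8 arrays compared (0.0617 to 0.151), nor with the snoRNA covariate (0.133) or a replicate block (0.0552). Hsp90aa1 was not called without M176 Treg or WT Treg replicates 1 or 2, M354-transduced replicates 1 or 2, M176-transduced replicate 1 or WT-transduced replicate 1 (0.0552 to 0.220). Its call was also lost with no filter (0.0557), after quantile normalization (0.0531), in the groups compared alone (0.0601), with the snoRNA covariate (0.199) and with a replicate block (0.0646). Values for M176 outside the main test were -0.50 for Cyp1b1 and -0.36 for Nqo1, with all values of both genes in these groups at most 40.6. Their M176 arrays lay below the WT mean in Tregs and above it in transduced cells. With no filter on dim genes neither passed (limma adjusted p = 0.275 and 0.418). The M176 Treg arrays of Cyp1b1, at 30.4 and 32.8, lay between its WT Treg arrays at 28.1 and 40.6.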

How the results depend on the processing

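Of 66 calls of named list genes, 31 held in all 21 alternatives and 35 were lost in at least 1. The Ahr and Tiparp values not named here kept their direction and their side of the threshold.

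Genes called moved by over 1.5 times as follows. With the snoRNA covariate M176 against WT Tregs gave 364, M354 against M176 Tregs 570, the M176 difference between systems 170 and M354 against M176 in transduced cells 12. With the 75th percentile filter, M354 against M176 Tregs gave 1572, M354 and M176 against WT in transduced cells 76 and 26, the mutants against each other there 0 (463 genes had an unadjusted p under 0.05 in limma without it), the M354 difference 54 and WT Tregs against WT-transduced cells 1339. Quantile normalization gave 259 for M354 against WT Tregs and 1 for M354 against M176 in transduced cells. The groups compared alone gave 65 for M354 against WT and 111 for M354 against M176 in transduced cells, and array weights gave 11 for the latter. Calls for M354 against WT Tregs split into 79 higher and 82 lower, and into 140 and 75 after cyclic loess. For WT Tregs against WT-transduced cells the split was 968 and 1728, and 1360 and 1291 after quantile normalization. For M354 against M176 in transduced cells it was 5 and 2, and 0 and 1 after quantile normalization.

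With the snoRNA covariate Ahr was at -0.49 for M176 against WT Tregs, 1.93 for M354 against M176 Tregs and -0.43 for the M176 difference between systems, and after cyclic loess M354 against M176 was 2.44. Tiparp in M176 against WT Tregs passed at 0.37 in the groups compared alone and with array weights. Tiparp in M354 against M176 Tregs did not pass with the snoRNA covariate (-0.42). Its M176 difference between systems did not pass at 0.75 (no filter, groups compared alone, replicate block), 0.69 (quantile normalization) or 0.68 (snoRNA covariate). The cause was not tested.

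Leaving out each array in turn, genes called ranged from 73 to 212 (M354 against WT Tregs), 917 to 2385 (M176 against WT Tregs), 1343 to 2879 (M354 against M176 Tregs), 42 to 140 (M354 against WT in transduced cells), 23 to 53 (M176 against WT there), 1 to 18 (the mutants there), 57 to 90 (M354 difference), 153 to 542 (M176 difference) and 1506 to 2768 (WT Tregs against WT-transduced cells). Fewer arrays leave fewer degrees of freedom. Ahr ranged from 1.49 to 1.85 for the M354 difference. For M354 against M176 in transduced cells Ahr ranged from -0.24 to 0.12 and Tiparp from -0.24 to 0.15, turning sign at 0.12 and 0.01 (Ahr without M354 or M176 replicate 1) and at 0.15 (Tiparp without M176 replicate 2). Tiparp ranged from -0.52 to -0.51 for M354 against M176 Tregs and from 0.55 to 0.95 for the M176 difference.

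The replicate numbers of the titles gave no pairing that ran the same way over the groups. Deviations from the group means correlated by over 0.1 in 3 of 15 pairs of groups, from -0.55 to 0.25. The lowest values were -0.55 for M354- and WT-transduced cells and -0.43 for WT Tregs and WT-transduced cells. Spread shared between groups under opposite replicate numbers was not tested. With a replicate block 134, 2012 and 2528 genes were called in the Treg comparisons, 99, 45 and 7 in transduced cells, 78 and 386 for the differences between systems and 2490 for WT Tregs against WT-transduced cells. Signal near that of genes of other organs limits what can be said of Ahrr, Cyp1a1, Cyp1b1 and Nqo1.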
